A study of Mus musculus with 6 samples.

Results

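The Eph receptors and the ephrins were followed by RNA-seq in cultured mouse chondrocytes, the cells of cartilage, with and without the microRNA miR-34a. Members were chosen by gene symbol: rows whose symbol begins with Epha, Ephb, Efna or Efnb and a digit. The rule found 8 genes among the 10189 of the deposited table, namely the receptor genes Epha1, Epha2, Ephb2, Ephb4 and Ephb6 and the ephrin genes Efna1, Efnb1 and Efnb2. The mouse family has 22 genes, 14 for receptors and 8 for ephrins. The other 14 had no row in this filtered table and were not analysed here: Epha3, Epha4, Epha5, Epha6, Epha7, Epha8, Epha10, Ephb1, Ephb3, Efna2, Efna3, Efna4, Efna5 and Efnb3. The family was selected on a measured value, the difference in Epha2 level between the genotypes in earlier results of these data. The KO against wild type values of the members are therefore given as a description, with no test.

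KO cells came from homozygous miR-34a KO mice (MiR-34a -/-, a global knockout) and wild-type cells from mice with the normal gene, both under the model nomenclature Mir34atm1.2 Mrl. All mice were C57BL/6 and 5 weeks old, and no treatment was given. Articular cartilage of knees and hips was pooled and digested with collagenase, and the cells were plated and grown to confluence before total RNA was extracted. There were 3 libraries per genotype. Each title carries its own code, whose meaning is not stated, and neither the labels nor the series text say whether the libraries of a genotype came from separate animals, so their spread may be technical.

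Eph receptors form the largest family of receptor tyrosine kinases, and ephrins are their ligands on the surface of neighbouring cells. Ephrins of the A class are tied to the membrane by a lipid anchor and those of the B class span it. Contact can signal in both directions, forward into the cell with the receptor and in reverse into the cell with the ephrin. In the skeleton, ephrin-B2 and EphB4 are known for exchange between osteoclasts and osteoblasts, and ephrin-B1 for patterning of the skull and limbs.

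MiR-34a acts by pairing of its seed, bases 2 to 8, with sites in messenger RNA. The mature sequence of miR-34a-5p and the matches of 7 bases in the 3′ UTR of measured members are shown because they are the only places in the longest annotated 3′ UTRs of the 8 genes where the full seed could pair. Capitals mark the seed in the microRNA and the matching bases in the target.
mmu-miR-34a-5p: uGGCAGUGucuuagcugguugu
Ephb2, 3′ UTR bases 6856 to 6862: agaggcaccaCACTGCCtttcctatga
Ephb2, 3′ UTR bases 6968 to 6974: tcatcccttcCACTGCCtcccaaaatg
Efnb1, 3′ UTR bases 1249 to 1255: cccacctccaCACTGCCtcctggccag
The microRNA sequence is from RefSeq (GRCm38.p6) and lies on chromosome 4 at 150068473 to 150068494 on the plus strand. The target sequences are from GENCODE M21 transcripts of the mm10 build. Ephb2, on chromosome 4, held 2 such matches in a 3′ UTR of 7783 bases, and Efnb1, on chromosome X, held 1 in 1464 bases. Efnb2 held no 7-base match but 2 matches to bases 2 to 7, in 3154 bases. Epha1, Epha2, Ephb4, Ephb6 and Efna1 held neither kind in UTRs of 281, 866, 891, 319 and 759 bases. Of the 9349 genes of the table with an annotated 3′ UTR of at least 20 bases, 19.4% held a match of 7 bases and 37.8% one of 6. A match is a string of letters and not a shown site of action. Among the other mature microRNAs of the RefSeq table, which is not complete, miR-34b-5p, miR-449a-5p and miR-449c-5p carry the same seed, and their genes lie on chromosomes 9 and 13.

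Values are the authors' TMM-normalized CPM, which are read counts scaled to an effective library size. Whole reads could be recovered from them, and libraries held 989217 to 5266617 reads, or 947081 to 1772185 without the ribosomal RNA precursor Rn45s, Lars2 and Mir6236. In wild type 1, 59.1% of reads lay on Rn45s. The sources used here do not say on which strand reads were counted, and Tsix, which is antisense to Xist, stood at 8.12 to 16.5 times Xist in all 6 libraries. All levels given here, those of the members included, are uncertain in this respect, and reads of overlapping genes on opposite strands cannot be told apart. Of chondrocyte markers, 16 of 18 had a row, with a summed level of 7719, 4119 and 4601 CPM in KO 1 to 3 and of 4091, 3041 and 2694 CPM in wild type 1 to 3. Macrophage and leukocyte markers, 15 of 15 with a row, summed to 1084, 15243 and 3586 CPM in the KO libraries and to 6341, 5891 and 5337 CPM in the wild-type libraries. Macrophage markers were thus highest in KO 2 and lowest in KO 1 of the 6 libraries. The summed level also separated the genotypes for 3 further lists. It was 79.0 to 123 CPM in KO and 157 to 227 CPM in wild type for mural cell markers (7 of 9 with a row), 1006 to 1504 CPM in KO and 1917 to 2271 CPM in wild type for proliferation genes (19 of 20), and 47.7 to 84.3 CPM in KO and 25.9 to 41.5 CPM in wild type for Schwann and neural markers (2 of 8, with log2 fold changes of 0.97 and −0.09). Sums of osteoblast markers (7 of 9) were 6720 to 19947 CPM in KO and 5344 to 7382 CPM in wild type, and those of fibroblast and dedifferentiation markers (12 of 13) 7167 to 9407 CPM in KO and 8068 to 10245 CPM in wild type. The part of these lists in the results below was not tested. In such bulk samples, fewer cells of a type and less RNA per cell cannot be told apart.

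Epha2 was the member with the highest KO levels relative to wild type. It encodes EphA2, a receptor of A-class ephrins that is known from epithelia, vessels and the lens and that also acts without ligand through phosphorylation of its cytoplasmic tail. Epha2 lies on chromosome 4 at 141301240 to 141329384 on the plus strand, and no annotated exon on the opposite strand overlaps its exons. Its level was 53.8, 24.0 and 52.0 CPM in KO 1 to 3, against 11.3, 10.7 and 7.04 CPM in wild type 1 to 3. Every KO library lay above every wild-type library, with KO 2 nearest to them at 2.12 times the highest wild-type value. These values rest on 141, 49 and 85 reads in the KO libraries and on 18, 14 and 12 reads in the wild-type libraries. The exact 95% Poisson interval, which covers counting error only, was 17.8 to 31.7 CPM in KO 2 and 6.70 to 17.9 CPM in wild type 1, so that the intervals of these libraries met at their ends. Epha2 averaged 43.3 ± 16.7 CPM in KO and 9.67 ± 2.30 CPM in wild type (SD, n = 3 each), a ratio of means of 4.47. The log2 fold change of the whole-table limma fit, on the scale log2(CPM + 0.5), was 2.05 (SE 0.39), and it was 1.84 to 2.42 when any 1 library was left out. Over all 10189 genes the 5th and 95th percentiles of the log2 fold change were −0.94 and 1.32. Both genotypes alone would have met the lowest second-highest value of any row, 7.35 CPM, so that the row of Epha2 did not depend on 1 genotype.

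KO 2, the KO library with the lowest Epha2, was also the one with the highest macrophage sum and the highest osteoblast sum, 19947 CPM. KO 1, with the highest Epha2, had the lowest macrophage sum, 1084 CPM. KO 3 was near it in Epha2 (52.0 against 53.8 CPM) at a macrophage sum of 3586 CPM. In wild type 1 to 3 Epha2 and the macrophage sum fell together, the sum from 6341 to 5337 CPM. The chondrocyte sum had the same order as Epha2 over all 6 libraries. It was 7719, 4601 and 4119 CPM in KO 1, KO 3 and KO 2. In wild type 1 to 3 it was 4091, 3041 and 2694 CPM. With KO 2 left out the log2 fold change of Epha2 was 2.42, and with KO 2 and wild type 1 both left out it was 2.54. Of 10 epithelial markers, among them Epcam, Cdh1 and Krt14, 0 had a row. Of 12 endothelial markers 4 had a row, and Pecam1 and Cdh5 were at 0 in at least 1 library. They summed to 6.87, 54.9 and 10.4 CPM in KO 1 to 3, against 22.6, 33.5 and 58.6 CPM in wild type 1 to 3. The part of these markers in the Epha2 values was not tested.

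**Figure D1:**
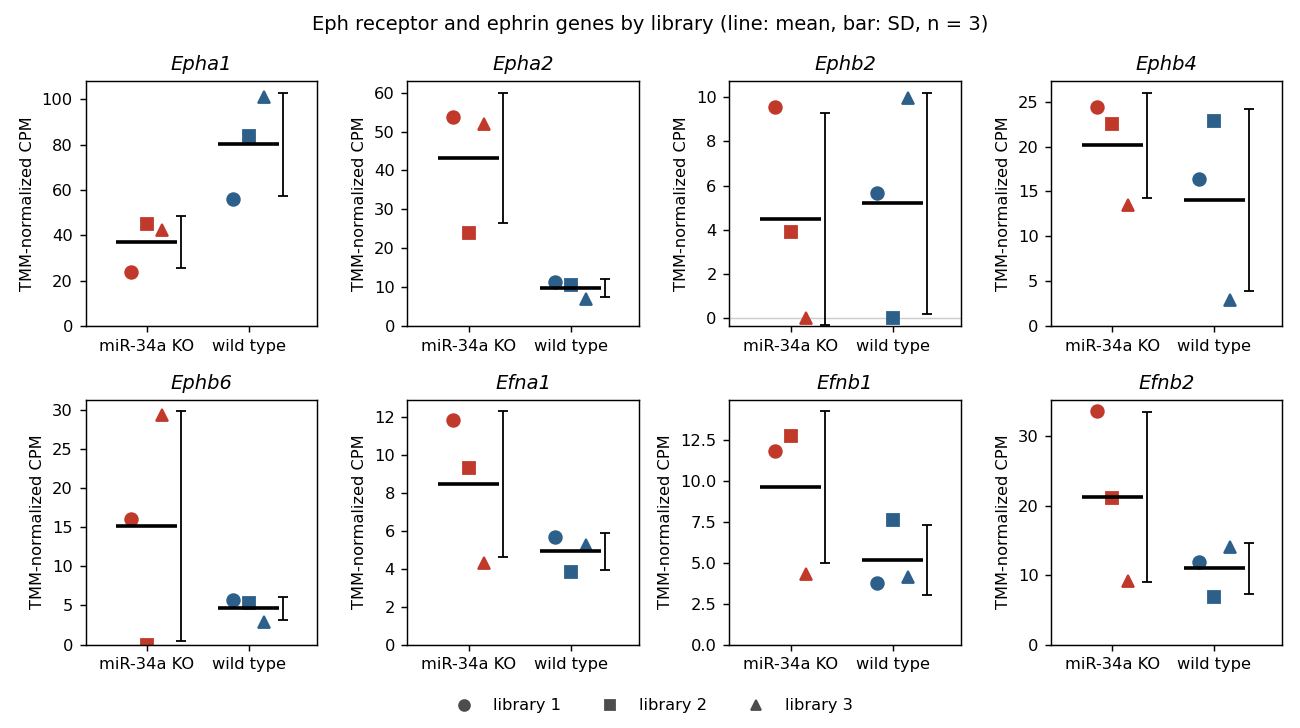
Level of each member in TMM-normalized CPM by library, miR-34a KO left and wild type right, with the mean as a line and the SD as a bar (n = 3). Epha2 lay above wild type in all 3 KO libraries and Epha1 below it, and the groups overlapped for the other 6 genes, where 0 reads were counted for Ephb2 in KO 3 and wild type 2 and for Ephb6 in KO 2.

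Epha1 was the member whose KO values all lay below those of wild type. It encodes EphA1, the founding receptor of the family, known from epithelia. Epha1 lies on chromosome 6 at 42358487 to 42373268 on the minus strand. Its 3′ end meets that of Zyx, the gene of the focal adhesion protein zyxin, on the plus strand, and exons of the 2 genes overlap over 236 of the 3928 exon bases of Epha1. Epha1 had 23.7, 45.1 and 42.2 CPM in KO 1 to 3, against 55.9, 83.8 and 100.8 CPM in wild type 1 to 3. The highest KO value was thus below the lowest wild-type value, and these levels rest on 62 to 172 reads per library. It averaged 37.0 ± 11.6 CPM in KO and 80.2 ± 22.7 CPM in wild type (SD, n = 3 each), with a log2 fold change of −1.12 (SE 0.32) that was −1.36 to −0.83 when any 1 library was left out. The row of Zyx had 23.7, 23.0 and 15.3 CPM in KO 1 to 3 and 18.8, 21.3 and 27.0 CPM in wild type 1 to 3, with groups that overlapped (log2 fold change −0.12, SE 0.31). Whether reads counted for Epha1 came from Epha1 or from the opposite strand cannot be told apart here.

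Of the receptors of the B class 3 were measured. Ephb4 encodes the receptor of ephrin-B2 in veins and in bone. It had 24.4, 22.5 and 13.5 CPM in KO 1 to 3, against 16.3, 22.9 and 2.93 CPM in wild type 1 to 3. The groups overlapped, and wild type 3 with 5 reads stood apart from the others. Its log2 fold change of 0.86 (SE 0.67) was 0.01 without wild type 3 and 1.40 without wild type 2. Ephb4 shares 33 exon bases with Zan on the opposite strand, which has no row.

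Ephb6 encodes EphB6, a receptor whose kinase domain is inactive. It had 16.0, 0 and 29.4 CPM in KO 1 to 3, against 5.65, 5.33 and 2.93 CPM in wild type 1 to 3. KO 1 and KO 3 lay above all wild-type libraries, while KO 2 had no read. In KO 2, 3 reads would be 1.47 CPM, and the exact 95% Poisson interval for 0 reads reaches 1.81 CPM. For Ephb6 only the KO libraries met the lowest second-highest value of any row, 7.35 CPM. That 2 KO libraries stood high is thus partly a condition of its row. The log2 fold change was 0.33 (SE 1.40), 2.16 without KO 2 and −0.79 without KO 3, so that its direction rests on single libraries. Ephb2, the receptor of B-class ephrins known from axon guidance and synapses, had the lowest mean over the 6 libraries of the 8 members. It had 9.54, 3.92 and 0 CPM in KO 1 to 3, against 5.65, 0 and 9.97 CPM in wild type 1 to 3. Each genotype held 1 library with no read, where 3 reads would be 1.84 CPM in KO 3 and 2.29 CPM in wild type 2. Its log2 fold change was −0.18 (SE 1.76), and it was 1.07 without KO 3 and −1.51 without wild type 2. Ephb2 is also the measured member with 2 seed matches.

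For the 3 ephrin genes KO 1 and KO 2 lay above all wild-type libraries, and KO 3 lay within the wild-type range. For Efna1 and Efnb1 only the KO libraries met the lowest second-highest value of any row, 7.35 CPM. That 2 KO libraries stood high is thus partly a condition of their rows, and nothing is read from it. Efnb2 encodes ephrin-B2, the ligand of EphB4. It had 33.6, 21.1 and 9.18 CPM in KO 1 to 3, against 11.9, 6.86 and 14.1 CPM in wild type 1 to 3. Efnb1 encodes ephrin-B1 and holds a seed match. It had 11.8, 12.7 and 4.28 CPM in KO 1 to 3, against 3.77, 7.62 and 4.10 CPM in wild type 1 to 3. Efna1 encodes ephrin-A1, a ligand of EphA2. It had 11.8, 9.31 and 4.28 CPM in KO 1 to 3, against 5.65, 3.81 and 5.28 CPM in wild type 1 to 3. All 3 genes overlapped between the genotypes because of KO 3, in which they had 15, 7 and 7 reads. Their log2 fold changes were 0.81 (SE 0.52) for Efnb2, 0.76 (SE 0.67) for Efnb1 and 0.64 (SE 0.66) for Efna1. Without KO 3 they were 1.30, 1.24 and 1.04, and without KO 1 0.39, 0.55 and 0.36. KO 3 thus stood within the wild-type range for the ephrins and above it for Epha2, at 52.0 CPM.

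**Figure D2:**
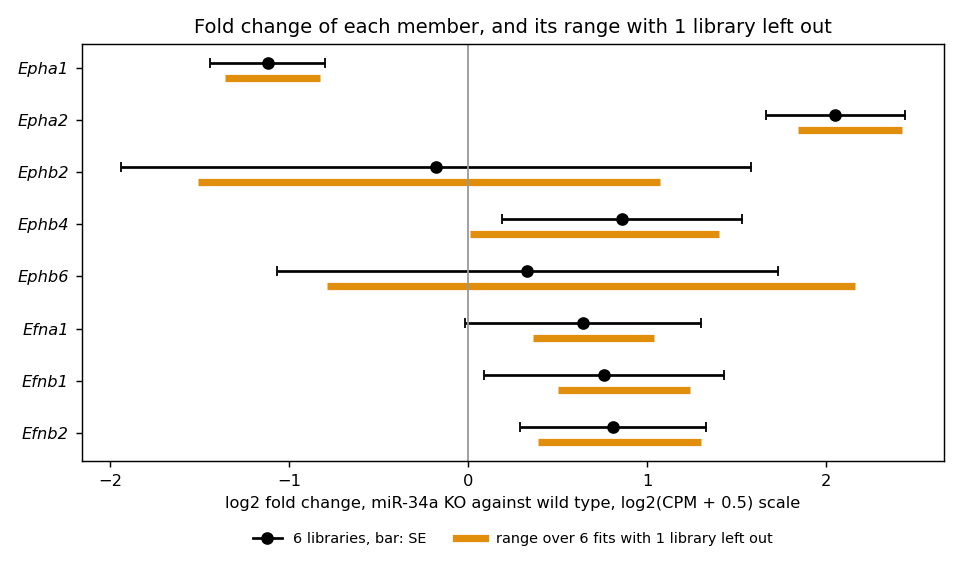
Log2 fold change of miR-34a KO against wild type for each member on the log2(CPM + 0.5) scale, with its SE (black) and the range over 6 fits with 1 library left out (orange). The ranges of Epha1, Epha2, Efna1, Efnb1 and Efnb2 stayed away from 0, those of Ephb2 and Ephb6 crossed it, and that of Ephb4 reached down to 0.01.

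Over the 8 members, 6 had a positive log2 fold change, against 51.4% of all genes, and the median was 0.70, against 0.02 for all genes. For Ephb6, Efna1 and Efnb1 only the KO libraries met the lowest second-highest value of any row, and for Ephb2 neither genotype did on its own, so that these counts are no measure of the family. Groups that did not overlap were seen for 1 member with KO above wild type (8.82% of all genes) and 1 with KO below (9.57%). Since these values led to the choice of Epha2 and its family, nothing is read from these counts.

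Levels of different genes were set side by side per length of annotated exon. Reads counted for Epha1 cannot be told from those of the opposite strand, so that its rank is uncertain. In KO the order by mean level was Epha1 (9.41 ± 2.96 CPM per kb), Epha2 (9.26 ± 3.57), Efna1 (4.63 ± 2.10), Ephb4 (4.34 ± 1.26), Ephb6 (4.01 ± 3.90), Efnb2 (3.10 ± 1.78), Efnb1 (2.79 ± 1.34) and Ephb2 (0.356 ± 0.380), all SD with n = 3. In this order, the steps from Epha2 to Efna1 and from Efnb1 to Ephb2 exceeded the SD of both neighbours, and the other steps did not. In wild type Epha1 stood first at 20.4 ± 5.77 CPM per kb. It was followed by Ephb4 (3.03 ± 2.19), Efna1 (2.68 ± 0.533), Epha2 (2.07 ± 0.493), Efnb2 (1.60 ± 0.541), Efnb1 (1.50 ± 0.618), Ephb6 (1.23 ± 0.394) and Ephb2 (0.413 ± 0.396). There the steps from Epha1 to Ephb4, from Efna1 to Epha2 and from Ephb6 to Ephb2 exceeded the SD of both neighbours, and the others did not.

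Summed over the 5 receptor genes, the level per length overlapped between the genotypes, while the shares of Epha1 and Epha2 in it did not. The sum was 27.8, 21.8 and 32.6 CPM per kb in KO 1 to 3 and 22.1, 30.0 and 29.4 CPM per kb in wild type 1 to 3. Epha2 made up 41.4%, 23.6% and 34.2% of it in KO 1 to 3, against 10.9%, 7.62% and 5.12% in wild type 1 to 3. Epha1 made up 21.7%, 52.7% and 33.0% in KO and 64.3%, 71.2% and 87.4% in wild type. Leaving Epha1 out because of its overlap with Zyx, a choice made after its values were seen, the sum was 21.8, 10.3 and 21.8 CPM per kb in KO and 7.89, 8.62 and 3.70 CPM per kb in wild type. Epha2 was then 52.9%, 49.8% and 51.0% of it in KO 1 to 3, and 30.7%, 26.5% and 40.6% in wild type 1 to 3. It was the highest of these 4 receptors in each KO library and in wild type 3, and Ephb4 was the highest in wild type 1 and 2. The 3 ephrins summed to 14.8, 11.9 and 4.92 CPM per kb in KO, against 5.92, 5.29 and 6.13 CPM per kb in wild type. These shares and sums come from the same contrast as the choice of Epha2 and are descriptions.

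**Figure D3:**
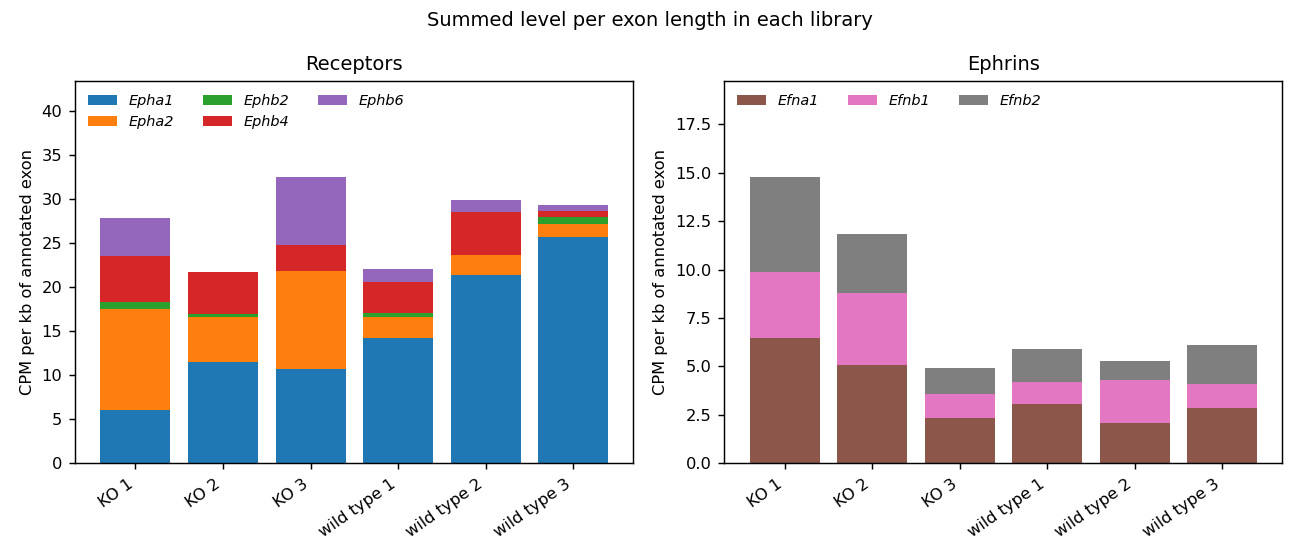
Stacked level of the 5 receptor genes (left) and the 3 ephrin genes (right) in CPM per kb of annotated exon, KO libraries before wild-type libraries. The Epha2 segment was 5.14 to 11.5 CPM per kb in KO and 1.51 to 2.42 in wild type, the Epha1 segment was larger in wild type, and the ephrins of KO 3 summed to 4.92 CPM per kb, against 5.29 to 6.13 in wild type.

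Epha2 and Ephb2 lie on the same chromosome as Mir34a, the deleted gene (chromosome 4 at 150068454 to 150068555, which has no row). Epha2 ends 8.74 Mb and Ephb2 13.23 Mb before it. The other measured members lie on chromosomes 3 (Efna1), 5 (Ephb4), 6 (Epha1 and Ephb6), 8 (Efnb2) and X (Efnb1).

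Among the 8695 other genes with a mean of at least 10 CPM, the 6 whose log2 levels followed those of Epha2 most closely over the 6 libraries were Micall1 (Pearson r = 0.993), Aplp2 (0.987), Taf9 (0.987), Mtmr12 (0.983), Ate1 (0.983) and Fbln7 (0.981). These libraries share the genotype split and their depth, and 30 genes had an r above 0.95, so that the values are a description. Fbln7, which encodes fibulin 7, a matrix protein, came closest to Epha2 in size. It had 35.1, 12.7 and 25.7 CPM in KO 1 to 3, against 5.65, 3.81 and 4.10 CPM in wild type 1 to 3, and KO 2 was again the lowest KO library. Micall1, which encodes a protein of endosome recycling, had 73.7, 50.0 and 65.5 CPM in KO and 39.6, 36.6 and 31.7 CPM in wild type, and 2229 of its exon bases overlap a gene on the opposite strand. The groups did not overlap for any of the 6, against 8.82% of all genes with KO above wild type. As the 6 were picked for following Epha2, nothing is read from this or from the low KO 2 values. The log2 fold changes of the 6 were 0.36 to 2.22.

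The genes that carry Eph and ephrin signals were compared in the whole-table fit, to ask whether the machinery around the receptors differed without miR-34a. Of 60 genes in lists of adaptors, effectors, proteases and kinases, 47 had a row, and 0 passed limma's adjusted p of 0.05 (0.00981% of all genes). At an unadjusted p below 0.05, where 4.64% of all genes were higher and 6.40% lower, 4 of the 47 were higher and 1 lower. Their median log2 fold change was 0.06. At the same adjusted p the quasi-likelihood test of edgeR (0.0196% of all genes) and DESeq2 (1.13%), both on the recovered reads, also called 0 of them. With so few calls over all genes, 0 calls are no measure of these lists and do not answer the question.

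Of 27 measured forward signalling adaptors and effectors, 2 were higher (4.64% of all genes) and 0 lower (6.40%) at an unadjusted p below 0.05. Their median log2 fold change was −0.01. Inppl1 encodes SHIP2, a lipid phosphatase that binds the SAM domain of EphA2. It had 75.9 ± 31.4 CPM in KO and 31.3 ± 7.48 CPM in wild type (log2 fold change 1.21, SE 0.33, limma adjusted p = 0.282), and 1299 of its exon bases overlap genes on the opposite strand. Nck2 encodes the adaptor Grb4, which binds both Eph receptors and the tails of B-class ephrins. It had 16.3 ± 2.98 CPM in KO and 5.97 ± 3.02 CPM in wild type (log2 fold change 1.45, SE 0.50, limma adjusted p = 0.335). Ngef, the gene of ephexin, an exchange factor that EphA receptors drive, had a log2 fold change of 1.97 (SE 1.09), and Itsn1, the gene of intersectin 1, had −0.53 (SE 0.24). Neither was below an unadjusted p of 0.05, and Ngef, which shares 123 exon bases with Neu2 on the opposite strand, ranged from 0.80 to 2.75 with 1 library left out.

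Of 9 measured partners of reverse signalling, 1 was higher (4.64% of all genes) and 1 lower (6.40%) at an unadjusted p below 0.05. The higher gene was Nck2, named above, and the median log2 fold change was 0.07. The lower gene, Grip2, encodes a scaffold with PDZ domains that binds the tails of B-class ephrins. It had 8.80 ± 2.67 CPM in KO and 23.5 ± 1.94 CPM in wild type (log2 fold change −1.41, SE 0.38, limma adjusted p = 0.281), and no exon on the opposite strand overlaps it. Ptpn13, a phosphatase gene with 70 exon bases in such an overlap, had a log2 fold change of 0.90 (SE 0.54) and Fyn, a Src family kinase gene, 0.54 (SE 0.40).

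The 8 proteases and subunits that cleave Eph receptors and ephrins all had a row (median log2 fold change 0.12). At an unadjusted p below 0.05, 0 were higher (4.64% of all genes) and 0 lower (6.40%). Mmp14, whose membrane protease trims EphA2, had 65.7 ± 5.99 CPM in KO and 75.7 ± 16.7 CPM in wild type. Adam10, the sheddase of ephrins, had 42.5 ± 11.5 CPM in KO and 37.2 ± 18.9 CPM in wild type. For the gamma-secretase subunits Ncstn and Psenen the log2 fold change was 0.18 (SE 0.20) and 1.02 (SE 1.22). Opposite-strand exons overlap 195 bases of Ncstn and 230 of Psenen.

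Of 7 kinases known to act on the EphA2 tail, 2 were higher (4.64% of all genes) and 0 lower (6.40%) at an unadjusted p below 0.05. Their median log2 fold change was −0.04, and with 7 genes the count is a description. Prkaca, a protein kinase A gene, had 28.0 ± 1.67 CPM in KO and 15.8 ± 7.07 CPM in wild type (log2 fold change 0.89, SE 0.35, limma adjusted p = 0.407). Akt2 had 47.5 ± 8.31 CPM in KO and 30.7 ± 3.62 CPM in wild type (log2 fold change 0.61, SE 0.25, limma adjusted p = 0.414). Rps6ka1 had −0.40 (SE 0.54), and 247 of its exon bases overlap opposite-strand exons.

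**Figure D4:**
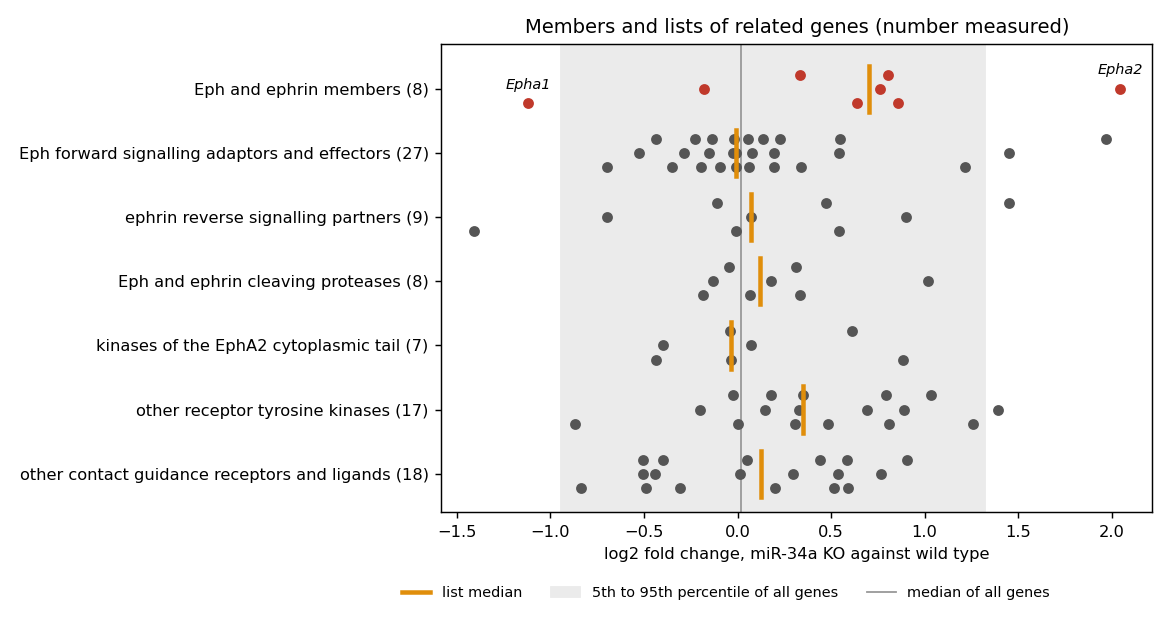
Log2 fold change of miR-34a KO against wild type for the 8 members (red) and for lists of related genes (grey), 1 point per gene, with each list's median (orange) and the 5th to 95th percentile of all genes (grey band, −0.94 to 1.32). Epha1 and Epha2 lay outside the band, as did genes of the other lists such as Ngef (1.97), Nck2 (1.45) and Grip2 (−1.41), and the list medians lay between −0.04 and 0.70.

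The Eph family can be set beside the other receptor tyrosine kinases and beside other receptors and ligands of cell guidance. Of 40 other receptor tyrosine kinases 17 had a row, of which 14 had a positive log2 fold change, against 51.4% of all genes. Their median was 0.35, against 0.02 for all genes, and their range was from −0.87 to 1.39. The value of Epha2, 2.05, lay above that range, a difference that was not tested because Epha2 was chosen for it. At an unadjusted p below 0.05, 1 of the 17 was higher (4.64% of all genes) and 0 lower (6.40%). This was Fgfr1, the gene of a fibroblast growth factor receptor, with 74.1 ± 9.65 CPM in KO and 46.3 ± 10.8 CPM in wild type (log2 fold change 0.69, SE 0.25, limma adjusted p = 0.356), which shares 164 exon bases with an opposite gene. Fgfr3, Fgfr2 and Pdgfrb had 1.26 (SE 0.66), 0.89 (SE 0.51) and 0.81 (SE 0.47). Of 36 genes of semaphorin, plexin, Slit, Robo and netrin signalling 18 had a row, of which 0 were below an unadjusted p of 0.05 (median 0.12). The log2 fold change was 0.44 (SE 0.22) for the receptor gene Nrp2, 0.59 (SE 0.31) for Neo1, 0.59 (SE 0.33) for Plxna1 and −0.84 (SE 0.45) for Unc5a. Overlaps with opposite-strand exons span 970 bases of Plxna1, 34 of Unc5a and 998 of Fgfr3. In both of these lists limma, edgeR and DESeq2 called 0 genes at an adjusted p below 0.05. Over all genes they called 0.00981%, 0.0196% and 1.13%, so that 0 calls are no measure of these lists.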

How the data were processed

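Libraries of 3 miR-34a KO and 3 wild-type samples were prepared with a stranded kit for total RNA, per the labels. The authors deposited a signal per gene and library, read counts scaled to TMM-normalized CPM after a filter on low genes. The submitters' processing notes name HISAT2 2.1.0, StringTie 1.3.5, cutadapt 1.18, bcl2fastq, edgeR and mm10, without roles. Values came in steps of 0.382 to 0.762 CPM, and dividing by the step gave whole reads for 100% of them (tolerance 0.001 reads). 1 column name differed from its sample title by 1 character, and 0 columns were left unmapped.

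Values on the log2(CPM + 0.5) scale of all 10189 genes were compared between genotypes by limma 3.58.1 with a trend (R 4.3.3), two-sided, and p-values were adjusted after Benjamini-Hochberg. Recovered reads were tested with edgeR 4.0.16 (quasi-likelihood) and DESeq2 1.42.0. Of these tests, only the limma fit was also run on simulated counts, and its outcome there is not reported here. No pair of replicates was the same within sampling noise (chi-square over degrees of freedom 5.83 to 27.8). Lengths, overlaps and the longest 3′ UTR per gene came from GENCODE M21, searched on the transcript strand for CACTGCC and ACTGCC. Python 3.11.15, numpy 2.4.6, pandas 2.3.3 and matplotlib 3.10.9 served for the rest. Named genes were all members, per list up to 4 of smallest p, and the 6 genes most like Epha2. 1 gene that this rule names and 1 list are not reported here. Members and lists were chosen with earlier results of these data known. Alternatives were other pseudocounts, a filter, scalings, no trend, a replicate block, other tests and leaving out libraries. Leaving out wild type 1 and KO 2 together was added after the data were seen.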

Additional observations from a re-analysis of the deposited data

How the results depend on the processing

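The log2 fold change of Epha2 was 1.84 to 2.54 over 16 alternatives, and that of Epha1 −1.52 to −0.83. The direction of Ephb2 turned without KO 3 (1.07), wild type 1 (0.30) or wild type 3 (0.68). That of Ephb6 turned without KO 1 (−0.36), without KO 3 (−0.79) and with a pseudocount of 0.1 (−0.33). It was 1.69 with edgeR and 1.72 with DESeq2, against 0.33 with limma. Efna1, Efnb1, Ephb2, Ephb6, Ngef and Psenen have no value under the minimum mean of 10 CPM. Over all genes limma called 1 gene. The count was 2 with a pseudocount of 2, 10 with no trend, 2 with edgeR, 115 with DESeq2, 0 to 32 with 1 library left out and 2 with both wild type 1 and KO 2 left out. Of the 8 members, 0 were past the adjusted threshold with limma, 1 with DESeq2 (1.13% of all genes) and 0 or 1 with 1 library left out (1 without KO 2). Nothing is read from these counts, since the family was chosen on the same difference. Pathway genes were at 0 calls in all alternatives run. These alternatives made 0 to 115 calls over all genes, so that 0 calls are no measure of the pathway genes. Over all genes, same-numbered KO and wild-type libraries did not deviate together (r = 0.02, 0.07 and −0.06). Such r reflect only shifts shared across many genes, so they cannot tell whether same-numbered libraries were handled together. A replicate block gave 0 calls over all genes, and KO 1 and KO 3 correlated best with another number. With 1 library left out, Psenen was −0.38 to 1.91, Adam10 −0.20 to 0.64 and Rps6ka1 −0.89 to 0.00, and with wild type 1 and KO 2 left out Psenen was −0.55 and Mmp14 0.05. The cause of these shifts was not tested. Depth limits the low members: Efna1, Efnb1, Ephb2 and Ephb6 had 0 to 48 reads per library.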
